A study of Mus musculus with 12 samples.

Results

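The question here is whether tumors in which TGF-beta was neutralized answered radiation in the same way as tumors that received a control antibody. All 12 of the 12 profiled tumors were used, 3 in each of 4 groups, because the comparison needs every group. LLC is a transplantable mouse lung carcinoma line. It was grown under the skin of the right flank in female C57BL/6 mice that were 6 to 8 weeks old. Treatment groups were formed at a tumor volume of 60 to 80 mm3, and RNA of whole tumors taken on day 19 was profiled. Every mouse received an antibody: the control and radiation groups received 13C4, and the 1D11 and 1D11_radiation groups received 1D11. 1D11 is a mouse antibody that neutralizes TGF-beta, and 13C4 is the matching control antibody. The labels disagree about the radiation. The treatment label gives 5 fractions of 6 Gy, whereas the sample description gives 2 Gy, and both irradiated groups carry the same entries. Titles and descriptions also name cells where the source names say tumor, and the values are described here as those of tumors. LLC is 1 line grown outside the lung, and whole-tumor RNA includes that of host stroma, vessels, immune cells and any adjoining tissue. Nothing in the labels states which tumors shared a cage or a day. The p-values therefore measure only the spread between the 3 tumors within each group, pooled over the 4 groups.

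TGF-beta is a secreted cytokine that is stored in a latent form and can be activated in irradiated tissue. Its receptors phosphorylate SMAD proteins, which induce genes of matrix production and wound contraction, while in immune cells the cytokine restrains activation, antigen presentation and cytotoxicity. Ionizing radiation activates p53 through DNA breaks, and DNA that reaches the cytosol can induce type I interferon. Interferon in turn induces antiviral genes and the machinery of antigen presentation. The series title links TGF-beta to the resistance of non-small cell lung cancer to radiotherapy.

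For each gene the radiation effect under 1D11 (1D11_radiation minus 1D11) was set against the radiation effect under 13C4 (radiation minus control). The interaction is the former minus the latter, on the log2 scale of the deposited intensities. A negative interaction means that the radiation effect lay lower under 1D11 than under 13C4. Errors given with ± are standard errors (SE) of the fitted difference, with n = 3 tumors per group. A gene counts as called when its p in limma's moderated test, adjusted over 12735 genes by the Benjamini-Hochberg method, is under 0.05.

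Array medians lay between 62.33 and 66.1 intensity units, and correlations between any pair of arrays ran from 0.9896 to 0.9974 across probe sets. Neighbouring tissue contributed unevenly. A list score is the mean of the members' log2 values, each centred over the 12 tumors. The skeletal muscle score reached 1.12 (control replicate 1) and 1.88 (radiation replicate 3), while the remaining 10 tumors had -1.24 to 0.63. The keratinocyte score was 0.87 in 1D11 replicate 1 and 2.32 in 1D11 replicate 3, and -0.18 or lower elsewhere. Control replicate 1 and radiation replicate 3 also had the lowest array weights, 0.297 and 0.359. The highest were 3.27 in 1D11_radiation replicate 3 and 2.44 in radiation replicate 2, so fits with array weights lean most on those tumors. Of 6 epithelial and lung markers Krt8, Krt18 and Epcam passed the filter on low values, whereas Cdh1, Nkx2-1 and Sftpc did not.

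No gene was called for the interaction (0 of 12735, 0%), and the smallest adjusted p was 0.265 in limma. At an unadjusted p under 0.05 there were 952 genes (7.48%). Of these, 649 (5.1%) had a negative and 303 (2.38%) a positive interaction, a split that became 479 and 359 after quantile normalization. The median interaction over all genes was -0.03, with quartiles of -0.13 and 0.08. Of all genes 7359 (57.8%) had a negative and 5376 a positive interaction. Counts of list members given below are to be read beside this 57.8%. Those at an unadjusted p under 0.05 are to be read beside 5.1% (negative) and 2.38% (positive). Precision was lower than for a single difference: the median SE was 0.139 for the interaction and 0.098 for a radiation effect. With array weights 122 genes were called (104 negative, 18 positive). The count was 21 without control replicate 1 (11 negative, 10 positive), 2 without 1D11 replicate 2 or without radiation replicate 3, 1 without 1D11_radiation replicate 3, and 0 without any other single tumor.

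The radiation effects under the separate antibodies share no tumor and could be compared directly. Under 13C4 radiation changed 304 genes (2.39%), 188 upward (1.48%) and 116 downward (0.911%). Under 1D11 it changed 10 genes (0.0785%). Across genes the effects correlated at a Pearson r of 0.389 and a Spearman rho of 0.394, as a description over 12735 genes that are not independent replicates. Of the 188 genes that rose under 13C4, 163 (86.7%) had a positive radiation effect under 1D11, where 42.4% of all genes did. Their median effect was 0.54 under 13C4, which chose them, and 0.20 under 1D11. Of the 116 genes that fell, 107 (92.2%) had a negative effect under 1D11, with medians of -0.56 and -0.34. With array weights the order of these counts turned round, to 890 under 13C4 and 1491 under 1D11. The count of 304 was sensitive to single tumors. It dropped to 39 when radiation replicate 1 was left out and to 20 when radiation replicate 2 was. It was 166 without control replicate 2, 170 without 1D11 replicate 2, and 189 and 182 without 1D11_radiation replicates 1 and 3. The count of 10 under 1D11 ranged from 1 without 1D11_radiation replicate 3 to 227 without control replicate 1. The latter tumor is in neither group of that comparison but enters its pooled error. For comparison, 1D11 alone changed 2 genes (0.0157%) against control, and 1D11_radiation minus radiation gave 0 calls in limma (688 genes, 5.4%, at an unadjusted p under 0.05, and 6 calls with array weights).

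**Figure D1:**
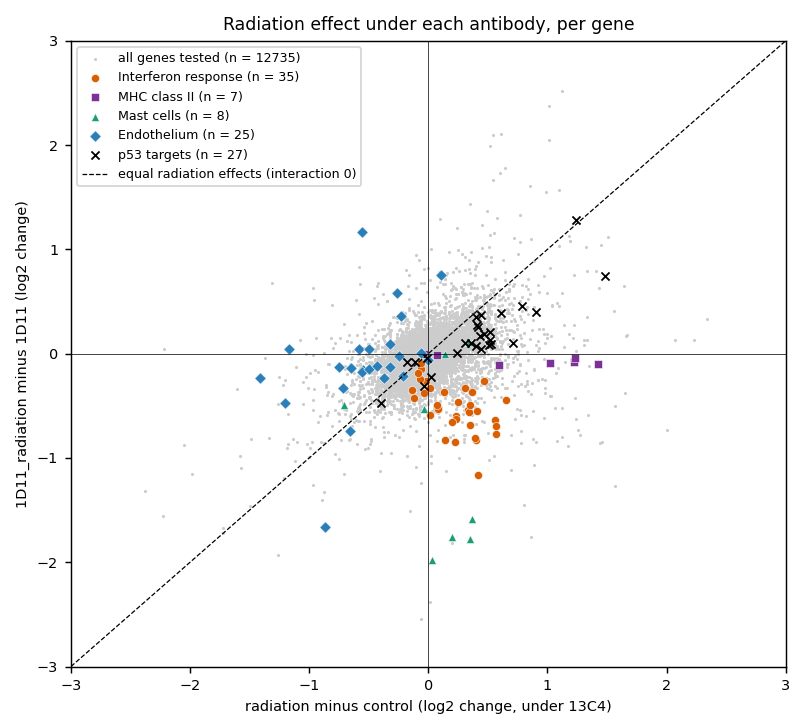
Radiation effect of each of 12735 genes under 13C4 (x axis, log2) and under 1D11 (y axis, log2), with the members of 5 gene lists in color and the dashed line where both effects are equal. The cloud is loosely correlated (Pearson r 0.389), and all 35 interferon response genes lie below the dashed line, at median effects of 0.23 and -0.53.

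Most genes with a small interaction p had radiation effects of opposite sign under the separate antibodies. Of the 649 genes with a negative interaction at an unadjusted p under 0.05, 490 had opposite signs, with median radiation effects of 0.27 under 13C4 and -0.19 under 1D11. Of the 303 with a positive interaction, 236 had opposite signs, with medians of -0.24 and 0.13. These genes were selected by the interaction itself, so their signs describe the selection and support nothing further.

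The interferon response list had a negative interaction throughout. All 35 tested members of the interferon response list lay below 0 (range -1.58 to -0.03, median -0.74), and 22 of the 35 had an unadjusted p under 0.05, where 5.1% of all genes did. None was called. The median radiation effect of the list was 0.23 under 13C4 and -0.53 under 1D11. Leaving out both tumors with high muscle signal gave 19 in place of 22. The count was 18 when the muscle score entered the fit as a covariate, 22 when the keratinocyte score did, and 18 to 25 over all 23 alternatives. Members below 0 numbered 33 of 35 without control replicate 1.

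Several of these genes carry an interferon-stimulated response element (ISRE) in the promoter. This element is the binding site of the STAT and IRF factors that interferon activates. Promoter windows of 300 bases were taken from RefSeq (GRCm38.p6), 250 before and 50 after each start, and searched on both strands for GAAA, any pair of bases and GAAA again. Of 69 genes named by the rule in the processing summary 53 had a promoter in that table, and 6 held a match: Stat4, Ifit1bl1, Slfn5, Ifit3, Gzma and Fcgr4. Parts of 4 of these promoters are shown 5′ to 3′ on the gene's strand, because they belong to genes with among the smallest interaction p in the antiviral, lymphocyte and macrophage groups. Capitals mark the match, which begins and ends with TTTC where it lies on the opposite strand.
Stat4 (chr1:52008108-52008187, plus strand): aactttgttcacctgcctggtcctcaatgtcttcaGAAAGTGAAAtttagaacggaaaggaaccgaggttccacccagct
Ifit1bl1 (chr19:34602028-34602107, minus strand): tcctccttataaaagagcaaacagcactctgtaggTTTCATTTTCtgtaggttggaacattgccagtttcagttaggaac
Ifit3 (chr19:34583338-34583451, plus strand): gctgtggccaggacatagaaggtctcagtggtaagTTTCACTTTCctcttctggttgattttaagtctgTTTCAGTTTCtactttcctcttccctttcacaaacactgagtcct
Fcgr4 (chr1:171018818-171018897, plus strand): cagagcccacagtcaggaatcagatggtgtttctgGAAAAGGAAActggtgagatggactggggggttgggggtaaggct

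The Stat4 match begins 97 bases before the start, and the Ifit3 window holds 2 matches, which begin 156 and 122 bases before it. Of 32851 promoters searched, 1131 (3.44%) held the ISRE pattern, and in 24 of them it overlapped a match to the STAT pattern TTCNNNGAA. In the interferon response list it was present in 15 of the 26 members with a promoter. The lists of mast cells, MHC class II and endothelium held 0 matches among 7, 4 and 11 members with a promoter. Of 10247 tested genes with a promoter, 366 held the pattern, and 40 of these (10.9%) had a negative interaction at an unadjusted p under 0.05, beside 5.04% of all 10247. Among the 351 that are not in the interferon response list the share was 8.83%, with a median interaction of -0.05. Shares for other patterns were 6.37% for the STAT pattern and 9.26% for GAGGAAGT, a site of the PU.1 type found in 3.2% of all promoters. It was 5.11% for the hypoxia response core ACGTG, found in 19.6%. For the SMAD palindrome GTCTAGAC, found in 0.213% of promoters, the share was 6.45%, which is 2 of 31 genes. A match is a description of letters and was not tested as a binding site.

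Ifit1bl1, a member of the Ifit family of interferon-induced antiviral proteins, had an interaction of -1.96 ± 0.37 (adjusted p = 0.265 in limma, 95% confidence interval -2.79 to -1.14). Its log2 intensity was 5.61, 6.22 and 5.06 in control replicates 1 to 3, and 6.63, 7.39 and 7.05 in the 1D11 tumors. The radiation tumors had 6.33, 6.77 and 6.46, and the 1D11_radiation tumors 5.83, 6.14 and 5.88. Each single treatment group thus lay above all 3 control tumors, while the tumors with both treatments overlapped the controls and lay below both single treatment groups. Ifit3 of the same family had -1.34 ± 0.31, with a radiation effect of 0.57 under 13C4 and -0.77 under 1D11.

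Ifi47, an interferon-inducible GTPase of host defense, had group means of 7.80 in control, 8.86 in 1D11, 8.68 in radiation and 8.3 in 1D11_radiation tumors, and an interaction of -1.43 ± 0.27. Gbp6, a guanylate-binding protein induced by interferon-gamma, had -1.18 ± 0.22. Gbp6 rose with radiation under 13C4 by 0.92 ± 0.16 (adjusted p = 0.0189, lost without radiation replicate 1 or 2 and at most 0.085), and its radiation effect under 1D11 was -0.25 ± 0.16. Oasl1 (-0.74 ± 0.14), an antiviral protein related to the oligoadenylate synthetases, and Slfn5 (-0.90 ± 0.17), a Schlafen protein, were also among the 12 negative genes with the smallest p. Cmpk2, a mitochondrial nucleotide kinase induced by interferon, and Dhx58, a regulator of RNA sensing, had interactions of -1.20 ± 0.27 and -0.87 ± 0.20.

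The interferon score of the 1D11 tumors was 0.17, 0.48 and 0.28, and that of the 1D11_radiation tumors was -0.21, -0.15 and -0.25. Control tumors ranged from -0.44 to 0.17 and radiation tumors from -0.08 to 0.17. The 1D11_radiation tumors were therefore the lower group in both comparisons with a single treatment and overlapped the controls.

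**Figure D2:**
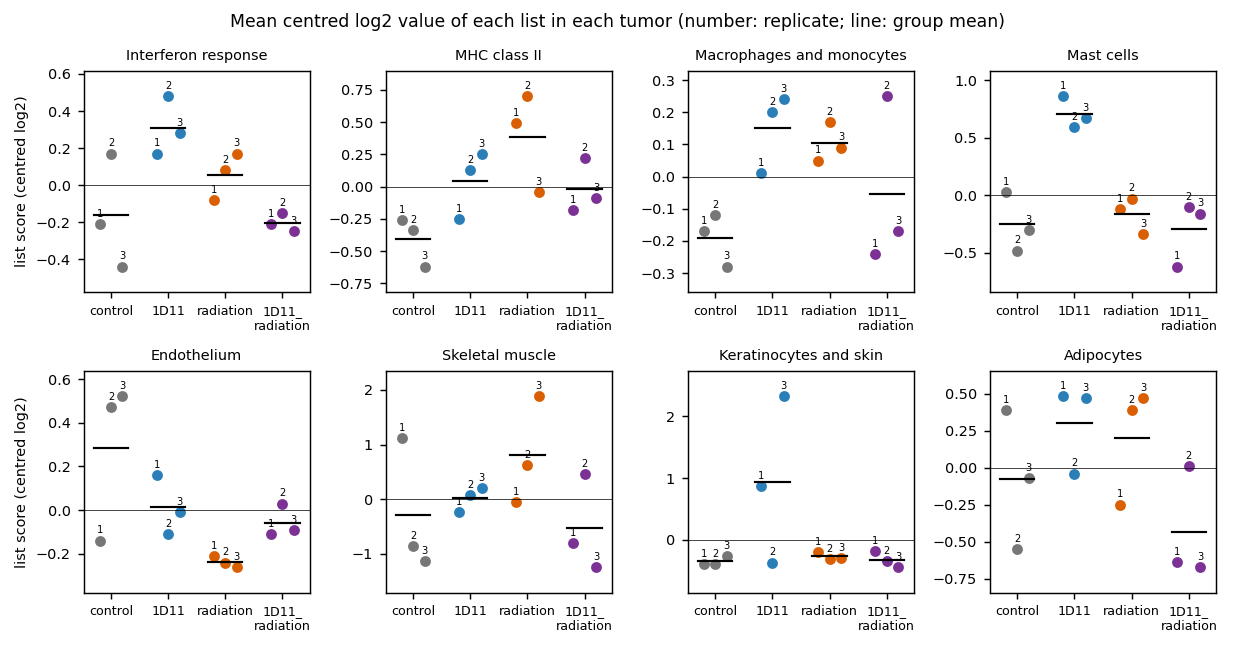
List scores of each of the 12 tumors (y axis, mean centred log2 intensity of the list members), by group, with the group mean as a bar. The interferon scores of the 3 1D11 tumors run from 0.17 to 0.48 and those of the 3 1D11_radiation tumors from -0.25 to -0.15, and single tumors with high muscle (1.88) or keratinocyte (2.32) scores stand apart from their groups.

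In the MHC class II list, whose products show peptides to helper T cells, 6 of 7 members had a negative interaction, 5 at an unadjusted p under 0.05 (median -1.11, range -1.51 to 0.04). H2-Aa, a class II chain, rose by 1.42 ± 0.28 with radiation under 13C4 (adjusted p = 0.0315, up to 0.122 with single tumors left out, 5 of which ended the call) and had -0.10 ± 0.28 under 1D11, an interaction of -1.51 ± 0.40 (adjusted p = 0.395). H2-Aa stood at 10.02, 9.85 and 9.40 in control, 10.13, 10.67 and 10.99 in 1D11, 11.31, 11.54 and 10.66 in radiation, and 10.22, 10.94 and 10.34 in 1D11_radiation tumors. Radiation replicate 3, a tumor with high muscle signal, was the lowest of its group. The chains H2-Ab1 (-1.30 ± 0.40) and H2-Eb1 (-1.27 ± 0.42) and the invariant chain Cd74 (-1.11 ± 0.38) had similar values, whereas Ciita, the master regulator of class II transcription, had 0.04 ± 0.22. Without control replicate 1 and radiation replicate 3 the list median was -1.56, and 3 of the 7 members had an unadjusted p under 0.05 when the keratinocyte score was a covariate.

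Of 11 MHC class I and peptide loading genes 10 were negative, 4 at an unadjusted p under 0.05, with a median of -0.29. The 4 were the immunoproteasome subunits Psmb10 (-0.42 ± 0.13) and Psmb9 (-0.61 ± 0.27), the class I regulator Nlrc5 (-0.78 ± 0.30) and the peptide transporter Tap1 (-0.44 ± 0.18). Genes named from this list lie outside the naming rule unless it gives them, and were chosen after their values were seen. The same holds for the T cell, costimulation, CXCR3 ligand, endothelial, pericyte, angiogenic, hypoxia, cytokine, p53, BMP, fibroblast and matrix lists. It also holds for Timp1, Ciita, Kit, Tpsb2, Hdc, Gata2, Prf1, Nkg7, Csf1r, Cd68, Adgre1, Marco, Arg1 and Cx3cr1.

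Dendritic cell genes had a median of -0.56, with 8 of 10 negative and 6 of them at an unadjusted p under 0.05. With the lowest 50 percent of genes left out 2 of the 10 remained tested, and the median was -0.14. Cd83, a surface protein of mature antigen-presenting cells, had an interaction of -1.45 ± 0.24 (unadjusted p = 7.32e-05, adjusted p = 0.265 in limma). It stood at 6.56, 6.61 and 6.65 in control, 7.35, 7.48 and 7.57 in 1D11, 7.97, 7.79 and 7.17 in radiation and 6.93, 7.22 and 7.02 in 1D11_radiation tumors. All 3 tumors with both treatments lay above the controls and below the 1D11 tumors, and 1 of them lay above radiation replicate 3. Radiation raised Cd83 by 1.03 ± 0.17 under 13C4 (adjusted p = 0.0155), a call that was lost without radiation replicate 1 or 2. Ccl22, a chemokine of mature dendritic cells (-0.60 ± 0.16), Ccr7, the receptor that guides them to lymph nodes (-1.17 ± 0.36), and Flt3, a growth factor receptor of their precursors (-0.72 ± 0.25), followed.

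In the macrophage and monocyte list 19 of 22 members were negative, 10 at an unadjusted p under 0.05 (median -0.58). Fits with a tissue score as covariate gave 5 (muscle) and 6 (keratinocyte), and the fit without 1D11_radiation replicate 2 gave 15. Of the general macrophage markers, Csf1r had -0.47 ± 0.31, Cd68 -0.35 ± 0.35 and Adgre1 -0.75 ± 0.25. The positive members were Marco (0.71 ± 0.47), Arg1 (0.30 ± 0.31) and Cx3cr1 (0.02 ± 0.23). Fcgr1, the high-affinity IgG receptor, had the second smallest p of all genes, with -1.20 ± 0.19 (adjusted p = 0.265). Control tumors had 8.55, 8.71 and 8.29, 1D11 tumors 9.22, 9.63 and 9.27, radiation tumors 9.20, 9.54 and 9.32, and 1D11_radiation tumors 8.97, 9.05 and 9.02. Values after each single treatment overlapped one another, and all 3 tumors with both treatments lay between them and the controls.

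Fcgr4, another activating IgG receptor, had -1.20 ± 0.32, and Itgam, the integrin chain CD11b of myeloid cells, had -0.75 ± 0.19. Mrc1, the mannose receptor of tissue macrophages, rose by 1.14 ± 0.15 under 13C4 (adjusted p = 0.00888), a call kept with any single tumor left out. Its interaction was -0.86 ± 0.22. The group means of Mrc1 were 11 in control, 12.06 in 1D11, 12.14 in radiation and 12.33 in 1D11_radiation tumors, so here the tumors with both treatments were not the lower group. In whole-tumor RNA, fewer cells of a type and less RNA per cell cannot be told apart.

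**Figure D3:**
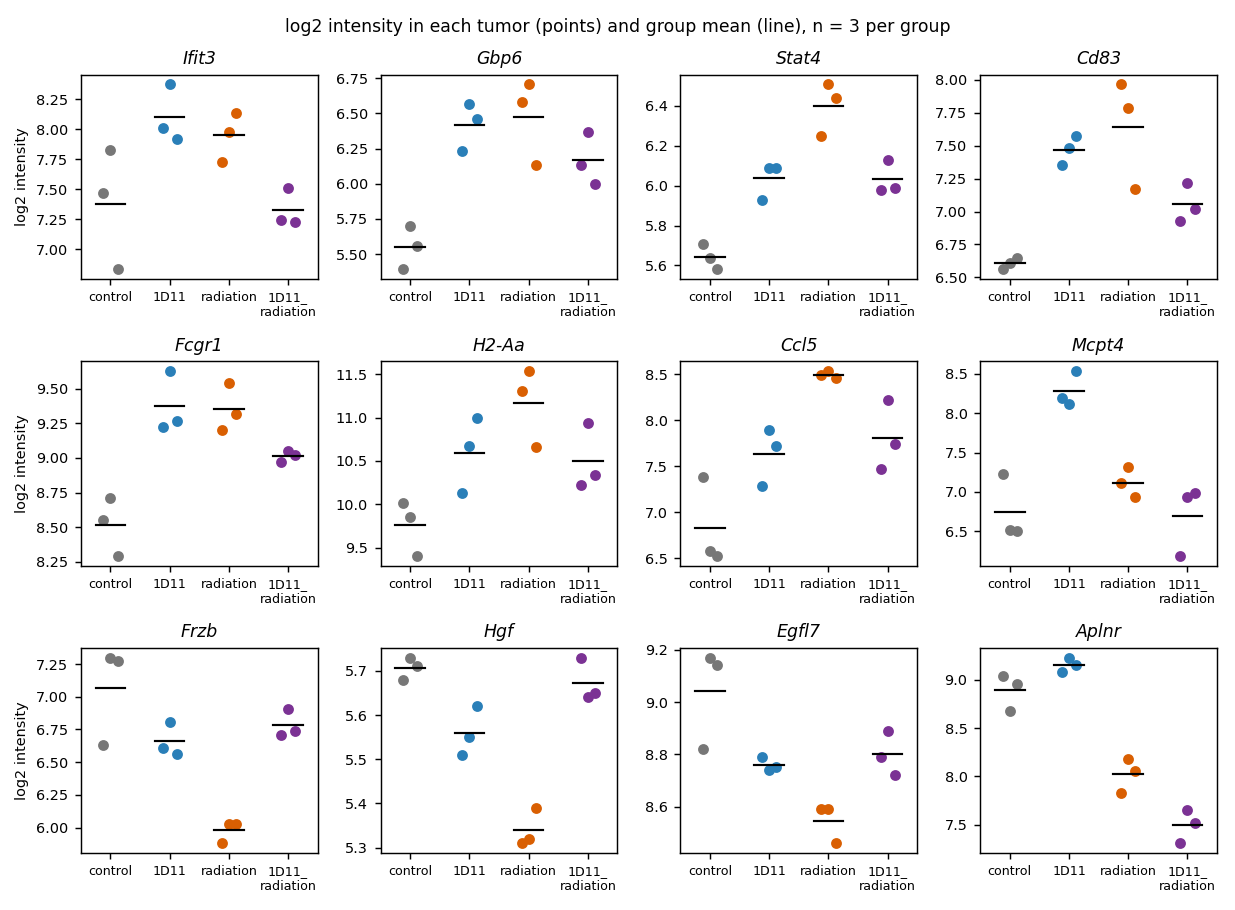
Log2 intensity of named genes in each of the 12 tumors (y axis), by group (x axis), with the group mean as a bar. Fcgr1 lies at 8.97 to 9.05 after both treatments and at 9.20 to 9.63 after either one, and Hgf lies at 5.31 to 5.39 in the radiation tumors and at 5.51 or higher in the other groups.

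Stat4, the transcription factor that carries interleukin-12 and interferon signals in T and natural killer cells, had the smallest interaction p. Its interaction was -0.75 ± 0.12 (unadjusted p = 4.65e-05, adjusted p = 0.265, 95% confidence interval -1.01 to -0.50). Stat4 rose by 0.75 ± 0.08 with radiation under 13C4 (adjusted p = 0.0071) and had 0.00 ± 0.08 under 1D11. Its values were 5.71, 5.64 and 5.58 in control, 5.93, 6.09 and 6.09 in 1D11, 6.25, 6.51 and 6.44 in radiation and 5.98, 6.13 and 5.99 in 1D11_radiation tumors. The radiation tumors lay above every other tumor, and the tumors with both treatments overlapped those with 1D11 alone.

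The cytotoxic lymphocyte list had 5 of 6 members below 0 and 2 at an unadjusted p under 0.05 (median -0.58), with median radiation effects of 1.26 under 13C4 and 0.42 under 1D11. The list median was -0.92 without 1D11_radiation replicate 2, and -1.49 with the lowest 50 percent of genes left out, where 1 of the 6 was tested. Ccl5, a chemokine made by T and natural killer cells, rose by 1.67 ± 0.24 under 13C4 (adjusted p = 0.0116, up to 0.053 without a single radiation tumor) and had 0.18 ± 0.24 under 1D11, an interaction of -1.49 ± 0.35. Ccl5 was at 7.38, 6.58 and 6.52 in control, 7.28, 7.90 and 7.72 in 1D11, 8.49, 8.54 and 8.46 in radiation and 7.47, 8.22 and 7.74 in 1D11_radiation tumors. The 3 radiation tumors lay close together and above all others. Klrd1, a chain of natural killer receptors, also had -1.49, with an SE of 0.40.

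For the granule proteases the difference was smaller against its error: Gzmb had -0.62 ± 0.31 and Gzma -0.54 ± 0.36, and intervals of both included 0. The remaining members of the cytotoxic list were Nkg7 (-0.22 ± 0.32) and Prf1, the member above 0 (0.34 ± 0.29). Among 7 T cell genes 5 were negative (median -0.22), where 57.8% of all genes were. At an unadjusted p under 0.05, 2 T cell genes were negative and 1 positive. The median was 0.25 with the lowest 50 percent of genes left out and -0.07 with a muscle covariate. The receptor chain Cd3d had -0.45 ± 0.18, and Zap70, the kinase that starts T cell receptor signalling, had 0.25 ± 0.08. The checkpoint and costimulation list had 5 of 8 members below 0, near the share of all genes. Of these, 3 had an unadjusted p under 0.05 (5.1% of all genes), among them Cd80 (-0.74 ± 0.21) and Cd86 (-0.74 ± 0.23), the paired costimulatory ligands of CD28. The costimulation list had a median of -0.16, which was -0.31 without radiation replicate 3, -0.08 without control replicate 3 and 0.12 with the lowest 50 percent of genes left out. Of the CXCR3 ligands, which draw activated T cells, Cxcl9 had -2.10 ± 0.66 and Cxcl10 -1.54 ± 0.40.

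Several mast cell genes had their highest mean in the 1D11 group. Of 8 members 7 were negative, 5 at an unadjusted p under 0.05 (median -1.23), and the median radiation effect was 0.17 under 13C4 and -1.06 under 1D11. Mcpt4, a chymase of connective tissue mast cells, was at 7.23, 6.51 and 6.50 in control and 8.19, 8.12 and 8.54 in 1D11 tumors. It was at 7.11, 7.31 and 6.93 in radiation and 6.18, 6.93 and 6.98 in 1D11_radiation tumors. Its interaction was -1.96 ± 0.34 (adjusted p = 0.265), and its radiation effect under 1D11 was -1.59 ± 0.24 (adjusted p = 0.0499), a call lost without any of 9 single tumors.

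Cma1, another chymase (-2.13 ± 0.41), Cpa3, the carboxypeptidase of mast cell granules (-2.01 ± 0.55), and Fcer1a, the IgE receptor chain (-1.96 ± 0.52), had the same pattern. The tryptase Tpsb2 had it at a smaller size (-0.50 ± 0.21). Of the other members, Kit, the receptor that maintains mast cells, had a positive value of 0.22. Hdc, the enzyme that makes histamine, had its highest mean after both treatments (8.11, and 8 in 1D11 tumors), and the transcription factor Gata2 had 9.55 in both groups. The mast cell score was 0.59 to 0.86 in the 3 1D11 tumors and 0.03 or lower in the other 9. In 1D11 replicates 1 to 3 the mast cell scores were 0.86, 0.59 and 0.67, and the keratinocyte scores were 0.87, -0.37 and 2.32. A covariate for keratinocytes gave a mast cell median of -1.21. That score was high only within the 1D11 group, and its part in the mast cell values was not tested further.

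Markers of neighbouring tissue had large and imprecise interactions. All 20 skeletal muscle genes were negative with a median of -1.81, but 2 had an unadjusted p under 0.05. The contractile genes Myh1 (-1.99 ± 0.87), Ttn (-2.74 ± 1.21), Myh4 (-2.84 ± 1.34) and the calcium pump Atp2a1 (-1.66 ± 0.79) varied widely within groups. Myh4 ran from 6.43 to 10.33 among the 1D11_radiation tumors alone. All 6 keratinocyte genes were negative (median -1.23, 2 at an unadjusted p under 0.05). Krt14, a basal keratin, was at 10.63 in 1D11 replicate 3 and 7.35 in 1D11 replicate 1, against 5.02 to 5.47 in the other tumors. The barrier genes Krt10 (-1.18 ± 0.40), Lor (-0.81 ± 0.33) and Dmkn (-2.01 ± 1.01) were high in the same 2 tumors.

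All 7 adipocyte genes were negative (median -0.53), 3 at an unadjusted p under 0.05. These were the hormone gene Adipoq (-2.62 ± 0.72), Car3 (-2.25 ± 0.84), a carbonic anhydrase also abundant in muscle, and the lipid droplet gene Plin4 (-0.53 ± 0.21), while the hormone gene Retn had -0.21 ± 0.16. The part that these tissues have in the immune values was not tested beyond the covariate fits given beside them.

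Neutrophil genes lay on the positive side, with 9 of 9 above 0 and a median of 0.42, yet 0 had an unadjusted p under 0.05 in limma. The median was 0.24 without 1D11 replicate 2 and 0.68 without 1D11 replicate 1. Values of the calcium-binding S100a9 were 9.42, 10.13 and 10.15 in control, 11.48, 9.19 and 9.52 in 1D11, 10.59, 9.83 and 9.35 in radiation and 11.29, 10.99 and 10.91 in 1D11_radiation tumors. Its interaction of 0.98 ± 0.72 had an interval of -0.61 to 2.56. The collagenase Mmp8 (0.62 ± 0.31), the chemokine receptor Cxcr2 (0.41 ± 0.25) and the granule protein Ngp (0.42 ± 0.26) were imprecise in the same way.

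**Figure D4:**
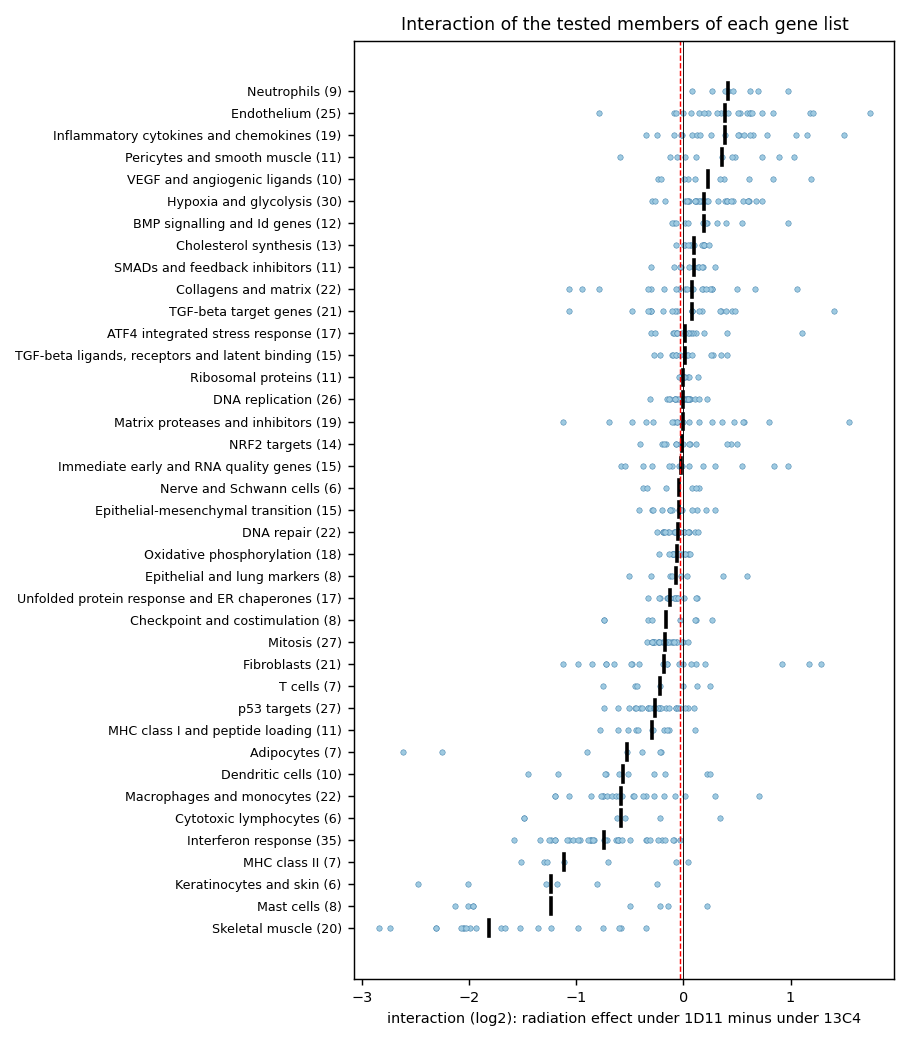
Interaction (x axis, log2) of every tested member of each gene list with at least 5 tested members (number in parentheses), with the list median as a black bar and the median of all genes, -0.03, as a red dashed line. Interferon response genes lie entirely below 0 (-1.58 to -0.03), and endothelial genes mostly above it, with a median of 0.39.

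Some stromal and vascular genes had a positive interaction, although 15 of 21 genes of the fibroblast list had a negative one (median -0.18). Hgf, the hepatocyte growth factor made by mesenchymal cells, had 0.48 ± 0.08 (unadjusted p = 0.000116, adjusted p = 0.265). Its values were 5.68, 5.73 and 5.71 in control, 5.51, 5.55 and 5.62 in 1D11, 5.31, 5.32 and 5.39 in radiation and 5.73, 5.64 and 5.65 in 1D11_radiation tumors. The radiation effect on Hgf was -0.36 ± 0.06 under 13C4 (adjusted p = 0.0139, up to 0.0713 without radiation replicate 1 or 2) and 0.11 ± 0.06 under 1D11. These intensities lie close to the filter at 5.37. The other Hgf probe sets, with lower means of 4.51 and 4.92, had interactions of 0.05 and -0.01.

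Frzb, a secreted Wnt inhibitor of mesenchyme and cartilage, had 1.21 ± 0.22 (adjusted p = 0.265). It was at 6.63, 7.30 and 7.27 in control, 6.61, 6.81 and 6.56 in 1D11, 5.88, 6.03 and 6.03 in radiation and 6.71, 6.91 and 6.74 in 1D11_radiation tumors. The radiation tumors were the low group, without overlap with any other. Nox4, an oxidase that TGF-beta induces in fibroblasts, had 1.12 ± 0.24, with a radiation effect of -0.61 ± 0.17 under 13C4 and 0.51 ± 0.17 under 1D11. Plxnd1, a semaphorin receptor of endothelium (0.57 ± 0.13), and Cd200, a surface glycoprotein that restrains myeloid cells (1.08 ± 0.25), were among the 12 positive genes with the smallest p. So was Rnf144a, a ubiquitin ligase (0.76 ± 0.14), although another of its probe sets of like intensity (mean 6.41, against 6.48) had -0.05, and averaging probe sets gave 0.30. The others were Rhd (0.44), Plcxd1 (0.67), C330022C24Rik (0.54), Lin7b (0.51) and Cyp2d22 (0.99), at adjusted p from 0.309 to 0.381. On the negative side Slco3a1, an organic anion transporter (-0.53), and Ms4a4c, a membrane protein of leukocytes (-1.42), complete the 12.

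Ccn2, the connective tissue growth factor and a classical TGF-beta target, had the highest interaction of the TGF-beta target list, 1.41 ± 0.34 (adjusted p = 0.381). Control tumors had 8.76, 9.39 and 9.76, 1D11 tumors 8.34, 7.93 and 8.18, radiation tumors 8.93, 8.34 and 8.90, and 1D11_radiation tumors 9.02, 9.18 and 8.73. The 1D11 tumors had the lowest mean, and the tumors with both treatments overlapped the controls.

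Medians of the TGF-beta pathway lists lay near 0. Among its ligands, Tgfb1 had an interaction of -0.27 ± 0.16, Tgfb2 of 0.28 ± 0.32 and Tgfb3 of 0.26 ± 0.28, with intervals that included 0. Tgfb1 values were 6.86, 7.19 and 6.97 in control, 7.23, 7.02 and 7.25 in 1D11, 7.51, 7.17 and 7.18 in radiation and 7.22, 7.14 and 7.18 in 1D11_radiation tumors, with overlap between all groups. The type I receptor Tgfbr1 had 0.41 ± 0.17 (unadjusted p = 0.038, adjusted p = 0.627) and the type II receptor Tgfbr2 0.03 ± 0.15. Of 15 ligand, receptor and latent binding genes 7 were negative and 8 positive, with a median of 0.02, and Tgfbr1 was the 1 member at an unadjusted p under 0.05.

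Smad7, the feedback inhibitor that TGF-beta induces, had 0.15 ± 0.13. Of 11 SMAD and feedback genes 7 were positive (median 0.10), 1 at an unadjusted p under 0.05. The 21 target genes divided into 10 negative and 11 positive (median 0.08), and besides Ccn2 the protease inhibitor Timp1 had an unadjusted p under 0.05 (-0.48 ± 0.18). In the list of BMP signalling and Id genes 9 of 12 were positive (median 0.19), with Bmp2, a ligand of that branch, at 0.98 ± 0.41. The directions of the ligand and target medians turned under some alternatives, with ranges of -0.07 to 0.11 and -0.07 to 0.24.

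Endothelial genes had a median interaction of 0.39, with 21 of 25 positive, 8 of them at an unadjusted p under 0.05, where 2.38% of all genes did. The median radiation effect was -0.50 under 13C4 and -0.13 under 1D11. The count of 8 depended on the tumors used: it was 18 without control replicate 1, 17 without that tumor and radiation replicate 3 together, and 5 with a muscle covariate. It was also 5 without 1D11 replicate 2, control replicate 2, control replicate 3 or 1D11_radiation replicate 2. Egfl7, a protein secreted by endothelium, had 0.53 ± 0.13, with 8.82, 9.17 and 9.14 in control and 8.79, 8.74 and 8.75 in 1D11 tumors. Radiation tumors had 8.59, 8.59 and 8.46, and 1D11_radiation tumors 8.79, 8.89 and 8.72. The radiation tumors were the low group in Egfl7, and the 1D11 and 1D11_radiation tumors overlapped. Nos3, the endothelial nitric oxide synthase, had 0.42 ± 0.11, and Flt1, a VEGF receptor, 0.59 ± 0.18. Of the general endothelial markers Cdh5 had 0.62 and Pecam1 0.39, whereas Kdr had 0.00 and Tek -0.09.

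Aplnr, the apelin receptor of growing vessels, went the other way from most of the endothelial list, with an interaction of -0.79 ± 0.17 (unadjusted p = 0.000705, adjusted p = 0.318). Its values were 9.04, 8.68 and 8.96 in control, 9.08, 9.23 and 9.15 in 1D11, 7.83, 8.18 and 8.06 in radiation and 7.31, 7.65 and 7.52 in 1D11_radiation tumors. It fell with radiation by 0.87 under 13C4 (adjusted p = 0.00985) and by 1.66 under 1D11 (adjusted p = 0.000322), with all irradiated tumors below all others, and both calls were kept with any single tumor left out. Tumors with both treatments lay below all 3 radiation tumors. These values are of the probe set with the highest mean (8.39), whereas another Aplnr probe set (mean 6.33) had an interaction of -0.05. Alternatives other than leaving out a single tumor gave Aplnr -0.88 to -0.42.

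Osr2, a zinc finger transcription factor of mesenchyme, is the contrasting case. It fell by 1.72 under each antibody (adjusted p = 0.0071 under 13C4 and 0.0159 under 1D11), and its interaction was 0.00 ± 0.28. The interval of -0.61 to 0.61 shows what size of difference these 12 tumors leave possible. Osr2 stood at 7.42, 7.25 and 7.12 in control and 7.67, 7.21 and 7.37 in 1D11 tumors, against 5.26, 5.53 and 5.85 in radiation and 5.72, 6.05 and 5.32 in 1D11_radiation tumors. The call under 1D11 was lost without any of 4 single tumors.

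Pericyte and smooth muscle genes had a median of 0.36, 8 of 11 positive and 2 at an unadjusted p under 0.05. These 2 were Mcam, an adhesion molecule of pericytes and endothelium (0.73 ± 0.21), and the proteoglycan Cspg4 (0.48 ± 0.13). The median was 0.04 without control replicate 1, and -0.02 with the lowest 50 percent of genes left out. The pericyte markers Rgs5 and Notch3 had interactions of 0.02 and -0.12. In the list of angiogenic ligands and receptors 8 of 10 were positive (median 0.23, and 0.10 without radiation replicate 2). Angpt2, the ligand that destabilizes vessels, had 0.84 ± 0.34, and Pgf, the placental growth factor, 1.19 ± 0.55.

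Of 30 hypoxia and glycolysis genes 27 were positive, 3 at an unadjusted p under 0.05, with a median of 0.19. The oxygen sensors Egln1 (0.41 ± 0.13) and Egln3 (0.60 ± 0.21) and the collagen hydroxylase P4ha2 (0.68 ± 0.28) were these 3. The count was 15 without control replicate 1, 14 with array weights and 1 with a covariate for muscle, where the median was -0.02. Inflammatory cytokines and chemokines had 14 of 19 positive (median 0.39), with 2 at an unadjusted p under 0.05. Csf2, the growth factor GM-CSF, had 0.57 ± 0.17, and the alarmin Il33 had 1.05 ± 0.46. This median became 0.05 without radiation replicate 3, 0.78 without 1D11 replicate 1 and -0.34 with a covariate for muscle.

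**Figure D5:**
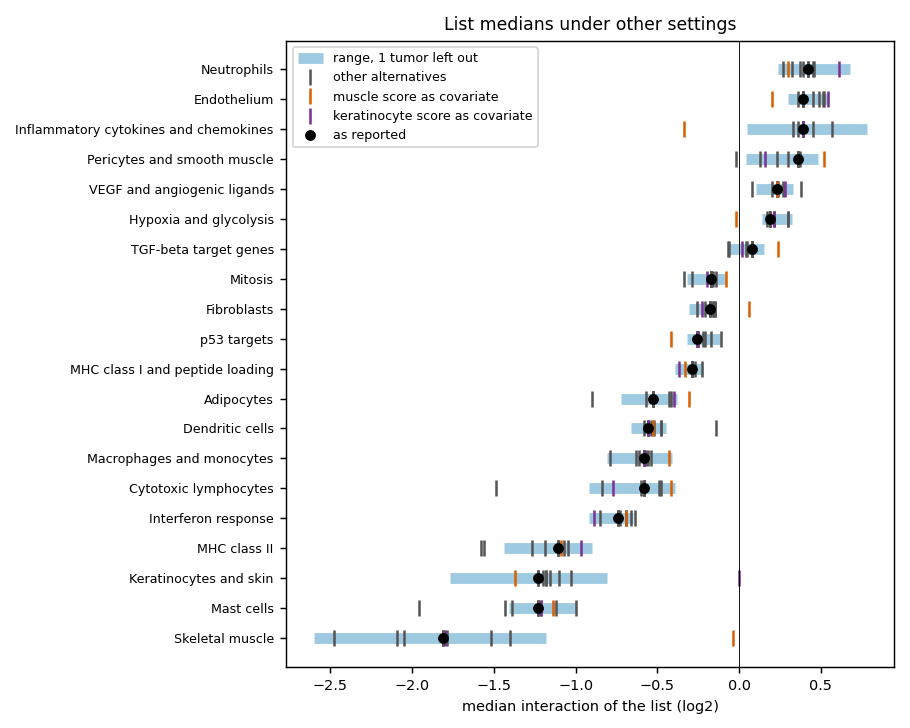
Median interaction of gene lists (x axis, log2) as reported (points), over the 12 fits that each leave out 1 tumor (blue bars), under other alternatives (ticks), and with a muscle or keratinocyte covariate. The interferon response median stays between -0.92 and -0.65 when a single tumor is left out, whereas the cytokine median changes sign to -0.34 with the muscle covariate.

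As for all genes, no p53 target was called for the interaction. Mdm2, the p53 inhibitor that p53 induces, rose by 0.61 ± 0.12 under 13C4 (adjusted p = 0.0294, up to 0.118 with single tumors left out) and had 0.39 ± 0.12 under 1D11, an interaction of -0.22 ± 0.17 (interval -0.60 to 0.15). Cdkn1a, the cell cycle inhibitor p21, was at 10.88, 12.11 and 12.28 in control and 12.11, 12.04 and 12 in 1D11 tumors. Irradiated tumors were within 12.51 and 12.58 under either antibody, and control replicate 1 stood apart from its group. The interaction of Cdkn1a was -0.33 ± 0.38, and 0.11 without that tumor.

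The 27 tested p53 targets had a median radiation effect of 0.43 under 13C4 and 0.10 under 1D11. Their median 1D11 effect was 0.24 in unirradiated and -0.01 in irradiated tumors. The mean list score was -0.27 in control, -0.03 in 1D11, 0.15 in radiation and 0.14 in 1D11_radiation tumors. The irradiated groups were thus alike, and the unirradiated groups differed. Among the p53 targets, 24 had a negative interaction (median -0.26), 4 at an unadjusted p under 0.05, and the median interaction was -0.12 without control replicate 1. The count was 15 with a muscle covariate and 9 without control replicate 3. The 4 genes were Gtse1, a regulator of p53 in the G2 phase (-0.45 ± 0.12), the death receptor Tnfrsf10b (-0.40 ± 0.11), the nuclease gene Aen (-0.26 ± 0.11) and Cd80, which also stands in the costimulation list. Mitosis genes were negative in 26 of 27 cases at a small size (median -0.17, and -0.32 without control replicate 1 or -0.09 without control replicate 3), with 1 at an unadjusted p under 0.05. Medians were -0.05 for DNA repair, 0.00 for DNA replication and 0.00 for ribosomal proteins, with 0 members of these lists at an unadjusted p under 0.05. Fibroblast genes (15 of 21 negative, median -0.18) and collagens and matrix genes (8 of 22 negative, median 0.08) had members on both sides. Examples were Pdgfrb, the receptor of pericytes and fibroblasts, at 1.17 and the matrix protein Postn at -1.07.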

How the data were processed

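Each sample is 1 tumor on 1 single-color Affymetrix array with 45101 probe sets. The values are deposited intensities on a linear scale, 1 per probe set and array. The authors' software and its settings are not given in the sources used. Sorted log2 values of any arrays differed by at most 0.129, so the deposited intensities, already alike between arrays, were used as log2 without another step, and the number of arrays limits the precision. A platform table gave 34945 probe sets 1 gene symbol, 932 several and 9160 none. The array's 64 control probe sets were excluded. Of 18193 genes, 9010 had more than 1 probe set, and the one with the highest mean was used. The lowest 30 percent of gene means (below log2 5.37) was left out, which left 12735 genes.

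Groups were compared with limma 3.58.1 in R 4.3.3 (lmFit with 1 mean per group over 12 arrays, eBayes with 8 residual and 3.11 prior degrees of freedom), two-sided, with Benjamini-Hochberg adjustment over all 12735 genes. The script was tested on simulated data. Lists are described by counts and medians with no test. Named genes are the 12 with the smallest unadjusted p in each direction, up to 4 with the smallest p in each of the 10 lists whose median lay farthest from that of all genes (at least 5 tested members), and Aplnr, Osr2, Mdm2, Cdkn1a, Smad7, Tgfbr2, Tgfbr1, Tgfb3, Tgfb2 and Tgfb1. Members and lists were chosen with earlier results of these data known. Promoter sequences are from RefSeq (GRCm38.p6). Alternatives were another choice of probe set, filter, normalization, offset, weighting, spread or block, covariates for muscle and keratinocyte scores, and each tumor or a pair of tumors left out.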

Additional observations from a re-analysis of the deposited data

Results flagged for a closer look

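The list score of dendritic cell genes showed opposite shifts with 1D11 in every tumor of the groups compared. Scores were -0.02 to 0.08 in the 3 1D11 tumors and -0.26 to -0.15 in the 3 control tumors, whereas they were -0.14 to 0 in the 3 1D11_radiation tumors and 0.07 to 0.32 in the 3 radiation tumors. The difference between these shifts was -0.51 in score units. The difference was not tested.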

How the results depend on the processing

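The 23 alternatives left out each of the 12 tumors in turn or changed another choice. Of 2402 values that 107 named genes took under them, 2327 kept their direction and their side of the threshold, 55 passed the threshold in the same direction, and 20 turned. The count of genes called for the interaction, 0 with all tumors, was 122 with array weights, 20 without control replicate 1 and radiation replicate 3 together, and 0 to 21 with a single tumor left out. All 122 and all 21 genes had the sign given with all tumors, and 13 were shared. These genes were selected in refits of the same tumors, so their signs support nothing further. For radiation minus control the count of 304 became 890 with array weights, 193 with probe sets averaged, 569 without those 2 tumors, 559 with the muscle and 173 with the keratinocyte score, and 20 to 436 with a single tumor left out. For 1D11_radiation minus 1D11 the count of 10 became 35 with probe sets averaged, 57 with the lowest 50 percent left out, 1491 with array weights, 63 with trend and robust, 419 without the 2 tumors, 20 with the muscle and 2 with the keratinocyte score, and 1 to 227 with a single tumor left out. For 1D11 minus control the count of 2 became 0 with probe sets averaged, 4 with no filter, 5 with quantile normalization, 13 with array weights, 59 without the 2 tumors, 10 with the muscle and 0 with the keratinocyte score, and 0 to 21 with a single tumor left out. For 1D11_radiation minus radiation the count of 0 became 6 with array weights, 1 without the 2 tumors and 0 to 1 with a single tumor left out. The correlation of 0.389 became 0.476 with the lowest 50 percent left out, 0.252 with array weights, 0.267 without the 2 tumors, and 0.198 to 0.452 with a single tumor left out, lowest without control replicate 1. With the replicate number as a block the interaction count was 0, the count for 1D11_radiation minus 1D11 was 1 and for 1D11 minus control 0. Same-numbered tumors share only a number: deviations from group means correlated at -0.31 to 0.27 in 18 pairs, 3 over 0.1, and 1 of 12 tumors was closest to its own number. Values that turned were Tgfb2 (0.00 without the 2 tumors, -0.03 without control replicate 1, and up to 0.5 with another tumor left out), Tgfbr2 (-0.07 with array weights, -0.09 to 0.11 with a single tumor left out), Cdkn1a (0.10 without the 2 tumors, 0.11 without control replicate 1, and down to -0.6 without another) and Krt14 (0.22 with the keratinocyte score). Osr2, at 0.00, became 0.09 with probe sets averaged and with quantile normalization, 0.07 without the 2 tumors, 0.36 with the muscle and 0.06 with the keratinocyte score, and -0.18 to 0.19 with a single tumor left out. The cause of these differences was not tested. Calls of the radiation effect under 13C4 for Stat4, Mrc1, Cd80, Aplnr and Osr2 were kept with any single tumor left out, and the other named calls of that effect were lost without 1 to 11 of the tumors, at adjusted p up to 0.166, with no change of sign.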

Other observations

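Some gene families were also looked at, chosen after their values were seen. They are not independent of the report: of 55 tested family members 16 are in one of its gene lists, and 21 are in a list or among the genes named by rule. Of all genes 5.1% had a negative interaction at an unadjusted p under 0.05. All 4 tested Ifit genes had a negative interaction at an unadjusted p under 0.05 (median -1.46, lowest Ifit1 at -1.58 and Ifit1bl1 at -1.96). The 5 tested immunity-related GTPases, which act against intracellular pathogens, were also all at that level (median -0.84). Of 4 guanylate-binding proteins 4 were negative, 3 at an unadjusted p under 0.05 (median -1.01). Among 6 oligoadenylate synthetase genes 4 were negative at that level, whereas Oas1e was positive at it (0.38). In the Schlafen family 5 of 6 were negative, 4 at an unadjusted p under 0.05 (median -0.72), with Slfn9 at 0.04. None of these genes was called.

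Of 10 tested genes of the Ms4a family of leukocyte membrane proteins 9 were negative, 5 at an unadjusted p under 0.05. Ms4a4b, a protein of T and natural killer cells, had the lowest value (-2.01 ± 0.41), with a radiation effect of 2.34 under 13C4 and 0.33 under 1D11. All 4 Fc gamma receptors were negative (median -0.84), 2 at an unadjusted p under 0.05. Of 5 Cd300 myeloid receptors 4 were negative (median -0.54), 3 at that level. Among the 5 tested genes Dock2, Dock8, Dock9, Dock10 and Dock11, 4 were negative (median -0.24), 1 at that level, and Dock10 had 0.20. Slamf7 and Slamf9, surface receptors of leukocytes, had -0.72 ± 0.14 and -0.90 ± 0.26. Related to the mast cell chymases, Mcpt8, a protease of basophils, had 0.42 ± 0.35 and the pseudogene Mcpt-ps1 had 0.02.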
